A study of Mus musculus with 10 samples.

Results

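The comparison described here sets 2 reference sets of libraries against each other, gene by gene, in a table of 4 unnamed differential expression comparisons. In the authors' deposited table the first and the second comparison share a numerator set, and so do the third and the fourth, while their reference sets differ. The second over the first reference is therefore the log2 fold change of the first comparison minus that of the second, and again that of the third minus that of the fourth. Of 35395 identifiers in the table, 9541 had a base mean of at least 10 CPM (base mean scaled by the sum of all base means of its comparison) in all 4 comparisons. Both estimates had the same sign in 9181 of these genes, 96.2%, which are the members. The 2 estimates use the same reference libraries, so that they match is arithmetic and no replication.

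The study is labelled as RNA sequencing of a visceral fat depot, the epididymal white adipose tissue, taken from C57BL/6 male mice. Its groups are 3 Ad-GFP and 2 Ad-IGF2 samples, from diet-induced obese mice whose fat was injected with adenovirus 2 times a week for 4 weeks, and 3 NC-RNAi and 2 IGF2-RNAi samples, from mice given lentiviral hairpin RNA by the tail vein at 3 to 4 weeks of age. An adenovirus or lentivirus is not limited to fat cells by its own nature, and the labels name no promoter that would limit it. The table holds human identifiers, 0 of which stand in the mouse annotation, and names no library. Neither reference set can therefore be called Ad-GFP, NC-RNAi or any other labelled group, and no value below is tied to IGF2.

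Defining genes of fat were nearly absent from the table. Of 10 adipocyte markers, 9 stayed under 1 CPM in every comparison, among them ADIPOQ, the adipocyte hormone, at no more than 0.0667 CPM and PLIN1, the lipid droplet coat protein, at no more than 0.439 CPM. ADIPOR2, a receptor for that hormone found in many cell types, was the exception at up to 118 CPM. Macrophage, endothelial and hepatocyte markers reached at most 22.0, 8.41 and 2.50 CPM. Mesenchymal markers reached 4875 CPM, in VIM, though 3 of 12 stayed under 1 CPM in every comparison. Epithelial markers reached 512 CPM, in KRT8, though 8 of 14 stayed under 1 CPM. The labelled tissue is thus not what these levels show, and no cell type is assigned here. In bulk RNA, fewer cells of a type and less RNA per cell cannot be told apart.

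As background, a reference set is the denominator of a fold change, so any difference between 2 reference sets enters every comparison made with them. Cultured human cells of one origin can differ in how fast they divide, in the matrix and adhesion proteins that they make, in their sterol supply and in the number of chromosome segments that they carry. Genes that lie side by side on a chromosome share the copy number of that segment. Sequencing libraries can also differ in how evenly long and short transcripts are represented, which depends on RNA integrity and on library preparation.

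Whole reads per library were recovered from the digits of the base means, 2 libraries in each of the 4 sets. The recovered reads gave a unique answer for 9535 of the 9541 genes. The base means of the second comparison, which were not used to find them, were met within a relative difference of 9.77e-10 in all 12603 genes of at least 2 CPM that were solved. Libraries are called A and B within a set, A being the one with the larger size factor. Reads per library ran from 11659059 to 27482576 over genes of at least 2 CPM. No source ties a library to an animal or a culture, so that every p-value measures only the spread between these libraries, which may be technical. The SD of the log2 difference over genes was 0.288 between the libraries of the first reference and 0.343 between those of the second, against 0.376 to 0.562 between the sets. A chi-square per gene of 29.1 and 38.4 within the sets put both pairs far beyond sampling noise, and so no library was a copy of another.

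Library B of the second reference stood apart from the others by transcript length. The coding length of the mouse gene of the same name, from GENCODE vM21, was available for 8489 of the 9535 genes, 89.0%, and for 89.9% of the called genes below. Against the mean of the first reference, the median log2 difference of the 620 genes with up to 500 coding bases was 0.18 in library A and 0.50 in library B of the second reference. Among the 446 genes of over 5000 coding bases it was -0.28 in library A and -0.67 in library B. In the other 6 libraries the same medians stayed between -0.02 and 0.12 for the short genes and between -0.11 and 0.11 for the long ones. Short genes were thus high and long genes low in the second reference, more so in library B. The counts over gene lists and stretches are therefore also given with the smooth trend of every library on coding length taken off, and the part of length in any single result was not tested beyond this.

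**Figure D1:**
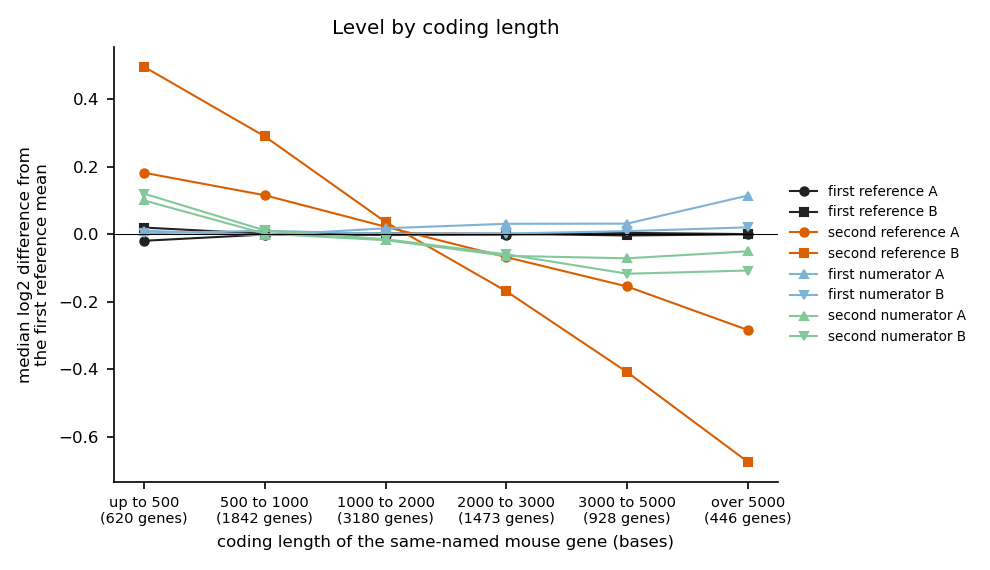
Median log2 difference of normalised reads from the mean of both first reference libraries (y axis) for genes in 6 classes of mouse coding length (x axis, bases), 1 line for each of the 8 libraries. The line of second reference library B falls from 0.50 to -0.67 and that of library A from 0.18 to -0.28, while the other 6 lines stay between -0.12 and 0.12.

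In the test set out for this comparison, a Wald test on the difference of the deposited fold changes with Benjamini-Hochberg adjustment, 7 members passed an adjusted p under 0.05 by both estimates. Of all 9541 genes, 0.0105% were called higher and 0.0629% lower. The summed errors count the shared numerator as if it were independent, which overstates the error. The first numerator adds to it as well, since its libraries A and B differed with an SD of 0.651. The estimate through the second numerator alone called 240 genes. At an unadjusted p under 0.05 by both estimates there were 181.

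ADAMTS2, the protease that trims the amino end of fibrillar procollagens, was the 1 gene called higher. Its normalised reads were 228 and 146 in the first reference and 1102 and 1094 in the second. The numerator libraries held 170 to 275 reads, so that the second reference alone was high. The estimates were 2.51 ± 0.52 and 2.55 ± 0.39 (SE, log2), with Wald adjusted p of 0.0025 and 5.01e-08.

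CDCP1, a membrane glycoprotein phosphorylated by Src kinases, had 2573 and 1991 normalised reads in the first reference and 248 and 103 in the second. Estimates of -3.73 ± 0.53 and -3.70 ± 0.36 (SE, log2) gave Wald adjusted p of 4.28e-09 and 1.99e-21. DNAH6, an axonemal dynein heavy chain, fell from 1262 and 841 reads to 99.2 and 80.4. In these genes both second reference libraries lay below both first ones and below all 4 numerator libraries.

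CD74, the invariant chain of MHC class II, had 514 and 1359 normalised reads in the first reference and 87.6 and 121 in the second. TNFAIP2, a gene induced by tumour necrosis factor, had 531 and 409 reads against 103 and 32.6. A called gene with the clone name AC090498.1 had 2181 and 1949 reads against 79.2 and 120. In each of these the first reference libraries lay above the second ones without overlap, as did the numerator libraries, which held 492 to 643 reads of CD74 and 492 to 1082 of TNFAIP2. In the recovered reads CD74 differed by -3.72 or -2.32 (log2) without library A or B of the first reference, and without library A or B of the second CDCP1 differed by -4.45 or -3.19 and TNFAIP2 by -3.83 or -2.18.

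A limma voom test on the recovered reads of the 4 reference libraries was added after the data had been seen. It called 812 of 9535 genes at an adjusted p under 0.05, 358 higher in the second reference (3.75%) and 454 lower (4.76%), and it held all 7 genes of the Wald test. Changes over 2-fold numbered 66 higher and 143 lower. At an unadjusted limma p under 0.05 there were 2415 of the 9535 genes, the share against which list counts at that limit are read. All 812 were members. Both tests rest on the same base means and libraries, so that their calls overlap is no replication. Without library B of the second reference, the differences of ADAMTS2 and HIST1H2AC stayed near their size, at 2.58 and 2.99 (log2). Others moved in either direction. NOTCH2 went from -1.12 to -0.63, AHNAK from -0.93 to -0.54 and DCC, the netrin receptor, from 1.33 to 1.67. Of 111 genes named by rule, 13 moved by over 1.5 times in some omission. A fit without 1 library leaves 1 library in that set, so its calls are no measure of single genes. Nearly all calls were lost without library B of the second reference, also those of ADAMTS2 and HIST1H2AC, whose differences stayed. With all 8 libraries in the fit, which then includes the spread between the first numerator libraries, limma called 22. With the length trend taken off it called 538, 281 higher and 257 lower, of which 390 were called in the same direction before. In what follows, higher, lower and called refer to the limma voom test on the 4 reference libraries, and numbers after "with the trend off" to the fit without the length trend.

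**Figure D2:**
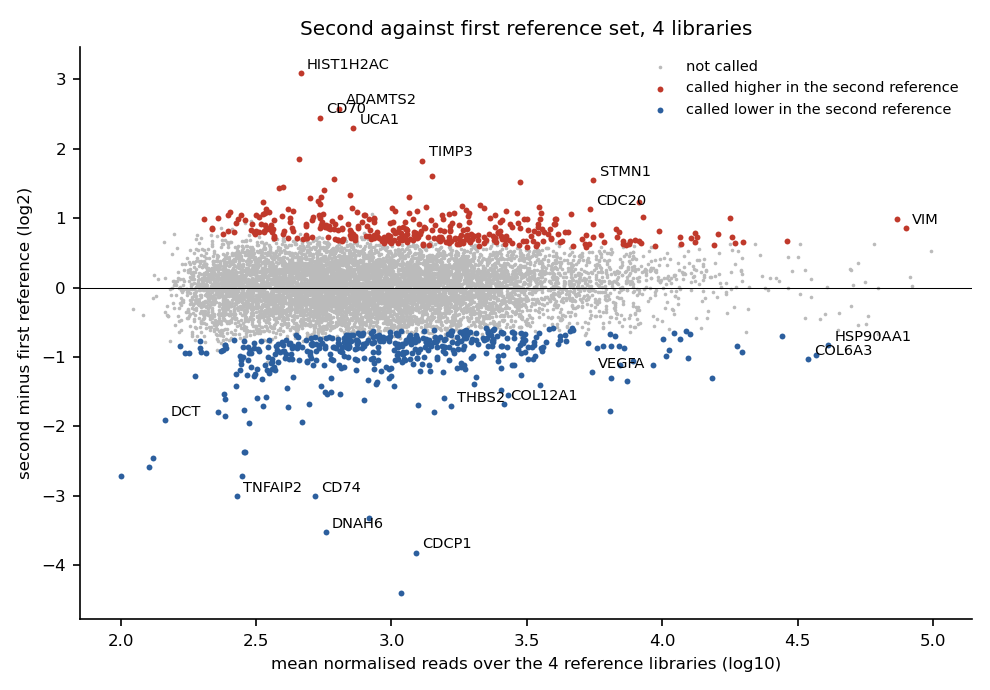
Log2 difference of the second from the first reference (y axis) against the mean of normalised reads over the 4 reference libraries (x axis, log10), 1 point for each of 9535 genes. Red points are the 358 genes called higher and blue points the 454 called lower by limma voom, with some of the named genes labelled.

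Among the genes highest against the first reference were replication histone genes. HIST1H2AC, a histone H2A gene, had 90.8 and 103 normalised reads in the first reference and 770 and 887 in the second, a difference of 3.09 ± 0.22 (SE, log2; limma adjusted p = 1.02e-07). HIST1H2BK, a histone H2B gene, had 547 and 869 reads against 1838 and 2370. Both second reference libraries lay above both first ones, and the first numerator library A was also high, at 982 and 2090 reads. The other numerator libraries had 178 to 323 reads of HIST1H2AC and 1160 to 1235 of HIST1H2BK. The first reference was thus the lowest set for both genes. Of 9 tested histone genes, 4 were called higher and 0 lower, with a median of 0.59 beside 0.01 over all genes, and 2 with the trend off. Histone genes are short and have near-identical copies, between which the counting could split reads, and their messages mostly lack the poly(A) tail.

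CD70, the ligand of CD27, was among the 15 largest rises. It had 263 and 98.7 normalised reads in the first reference and 760 and 1049 in the second, a difference of 2.45 ± 0.31 (SE, log2; limma adjusted p = 0.000156). TNFSF9, the ligand of the receptor 4-1BB, had 249 and 151 reads against 627 and 800, a difference of 1.86 ± 0.25. The first reference libraries were far apart in these genes, and without library A or B of that set CD70 differed by 3.17 or 1.76. First numerator library A was as high as the second reference, with 1278 reads of CD70 and 756 of TNFSF9, while its library B had 501 and 282. The second numerator had 399 and 311 reads of CD70 and 327 and 335 of TNFSF9. In both genes every numerator library thus lay above both first reference libraries. The long noncoding RNA UCA1 had 413 and 130 reads in the first reference, 995 and 1347 in the second and 3794 and 876 in the first numerator. TIMP3, an inhibitor of metalloproteases, had 966 and 302 reads against 2169 and 1768, with 3184 and 448 in the first numerator. The second numerator had 810 and 752 reads of UCA1 and 460 and 425 of TIMP3. Every numerator library lay above both first reference libraries in UCA1, which was not so in TIMP3. Without library A or B of the first reference UCA1 differed by 3.15 or 1.49 and TIMP3 by 2.69 or 1.02 (log2).

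**Figure D3:**
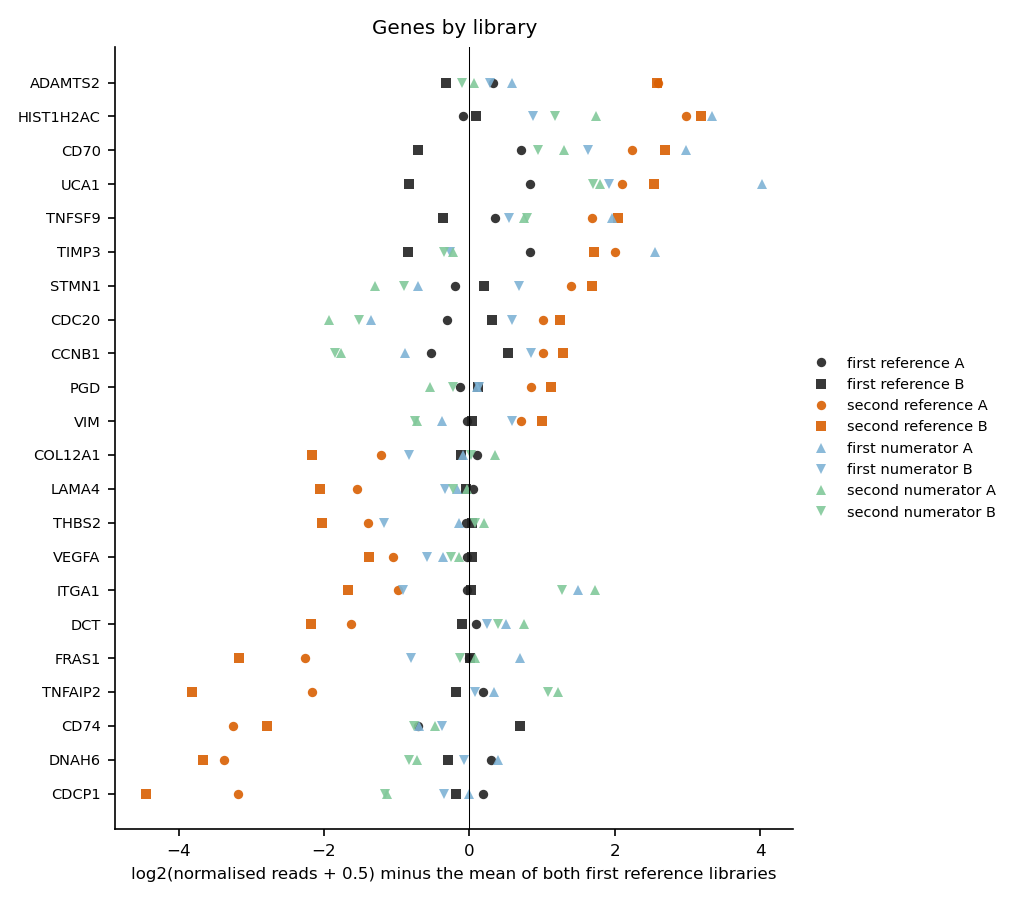
Log2 of normalised reads plus 0.5, relative to the mean of both first reference libraries (x axis), for 22 called genes (y axis) in the 8 libraries, 1 point for each library. The orange points of the second reference lie on 1 side of both black points of the first reference in every gene drawn. The blue and green numerator points spread widely in several genes, among them TIMP3, CCNB1, ITGA1, CDC20, HIST1H2AC and UCA1. In HIST1H2AC, CD70, TNFSF9 and UCA1 all numerator points lie above both black ones.

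On the lower side, genes of several kinds lost most of their reads. FRAS1, a basement membrane matrix protein, had 479 and 485 normalised reads in the first reference and 100 and 53.2 in the second, a difference of -2.71 ± 0.27 (SE, log2; limma adjusted p = 8.47e-06). ALDH1L2, the mitochondrial enzyme that oxidises formyl tetrahydrofolate, had 380 and 586 reads against 92.9 and 88. DMKN, a secreted protein of epidermis, had 308 and 141 reads against 41.2 and 34.8. DCT, the melanin enzyme dopachrome tautomerase, had 245 and 214 reads against 73.9 and 50. In all 4 genes the groups did not overlap, which was so for 28% of all genes on the lower side and 29.6% on the higher side. All 4 were also called with the trend off.

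The numerator sets give the called genes a further point of comparison. Over the 358 genes called higher, the median log2 difference from the first reference was 0.69 and 0.94 in the second reference libraries, 0.18 and 0.13 in the first numerator and -0.01 and 0.00 in the second. Over the 454 called lower it was -0.67 and -1.09 in the second reference libraries and between -0.16 and -0.08 in the 4 numerator libraries. Over the 226 higher genes not assigned to the neighbour stretches described next, it was 0.70 and 0.93 in the second reference. In the first numerator it was 0.29 and 0.22, which lay partway. These medians are a description, since the genes were chosen on the reference libraries.

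Genes that neighbour each other shifted together in 3 stretches. The tested genes were placed in the order of the mouse genes of the same name (RefSeq, GRCm38.p6), which was possible for 8469 of 9535, 88.8%, and cut into 221 windows of up to 40 genes. The median log2 difference of a window was past 0.3 in size in 13 windows, and between -0.25 and 0.24 in all others. These 13 formed 1 stretch each at the far end of mouse chromosomes 3, 4 and 12. The limit and the windows were chosen after the differences had been seen, so the values below describe the stretches and are no test of them.

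The longest stretch ran over 9 adjacent windows of mouse chromosome 4, 350 genes from PRKAA2 to NOC2L. Their median difference was 0.53, a level 1.44 times that of the first reference, and 316 of the 350 lay above 0. Both second reference libraries lay above both first ones in 286. By library, the median against the first reference was 0.47 in library A and 0.60 in library B of the second reference, and between -0.03 and 0.02 in the 4 numerator libraries. Called genes were 131 higher and 1 lower, the receptor phosphatase PTPRF, whose difference of -0.74 ± 0.20 (SE, log2; limma adjusted p = 0.0311) was not called with the trend off. The other 200 tested genes of the same mouse chromosome had a median of -0.07, with 2 called higher and 14 lower. With the trend off the stretch kept a median of 0.50 and 114 higher calls.

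Genes of quite different function rose in this stretch. STMN1, a protein that destabilises microtubules, had 2463 and 3238 normalised reads in the first reference and 7460 and 9107 in the second, a difference of 1.55 ± 0.19 (SE, log2; limma adjusted p = 0.000142). PGD, an enzyme of the pentose phosphate pathway, had 2175 and 2576 reads against 4271 and 5178. SDHB, the iron-sulphur subunit of mitochondrial complex II, had 1271 and 1187 reads against 1985 and 2668. YBX1, a nucleic acid binding protein picked here after its values were seen, had 11347 and 12243 reads against 21042 and 26434. In none of these 4 did the reference sets overlap, which was so on the higher side for 286 of the 350 genes of the stretch and 29.6% of all genes.

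Mouse chromosome 12 ended in 3 windows of lower level, 90 genes from VIPAS39 to ITGB8. Their median difference was -0.81, a level of 0.569 times that of the first reference, and 84 of 90 lay below 0. By library the median was -0.77 in library A and -0.84 in library B, and between -0.09 and 0.03 in the numerator libraries. Called genes were 58 lower and 0 higher, and 60 lower with the trend off.  Of the 6 genes above 0, VIPAS39, AHSA1, ALKBH1, SLIRP and SNW1 took places 1, 2, 4, 5 and 6 of the 90, and CCDC85C place 47. The lower levels thus began a few genes inside the first of the 3 windows.

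HSP90AA1, the inducible cytosolic chaperone of the HSP90 family, was the most abundant called gene of this stretch, with 50801 and 53864 normalised reads in the first reference and 26590 and 32686 in the second. Its difference was -0.83 ± 0.20 (SE, log2; limma adjusted p = 0.0174). IFI27, an interferon-induced mitochondrial protein, had 247 and 105 reads against 27.4 and 21.7, and differed by -2.08 or -3.31 (log2) without library A or B of the first reference. TNFAIP2, described above, and ITGB8, an integrin beta chain, belong to the same stretch. ITGB8 differed by -1.28 to -2.70 when 1 of the first reference libraries or library A of the second was left out, and by -1.23 without library B of the second. DICER1, the nuclease that cuts microRNA precursors, and WARS, the cytosolic tryptophanyl-tRNA synthetase, both picked after their values were seen, had 1783 and 1978 against 830 and 403 reads and 2722 and 3101 against 1079 and 1133. The second numerator held 9025 and 8834 reads of WARS and 129458 and 109782 of HSP90AA1, the highest of all sets for both.

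A thin window of 14 genes at the end of mouse chromosome 3, from NEXN to WLS, had a median of 0.47 with all 14 above 0. Its medians in the second reference libraries were 0.47 and 0.35, and -0.23 to 0.02 in the numerator libraries. CRYZ, a quinone reductase, was the 1 called gene, with a difference of 0.83 ± 0.20 (SE, log2; limma adjusted p = 0.0176). Without library A of the first reference the median fell to 0.31. In the human genome, as background, most genes of both higher stretches lie on the short arm of chromosome 1 and most genes of the lower one on the long arm of chromosome 14, with ITGB8 on another chromosome. DNA was not measured, and whether segment number differs between the cells of the sets was not tested.

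**Figure D4:**
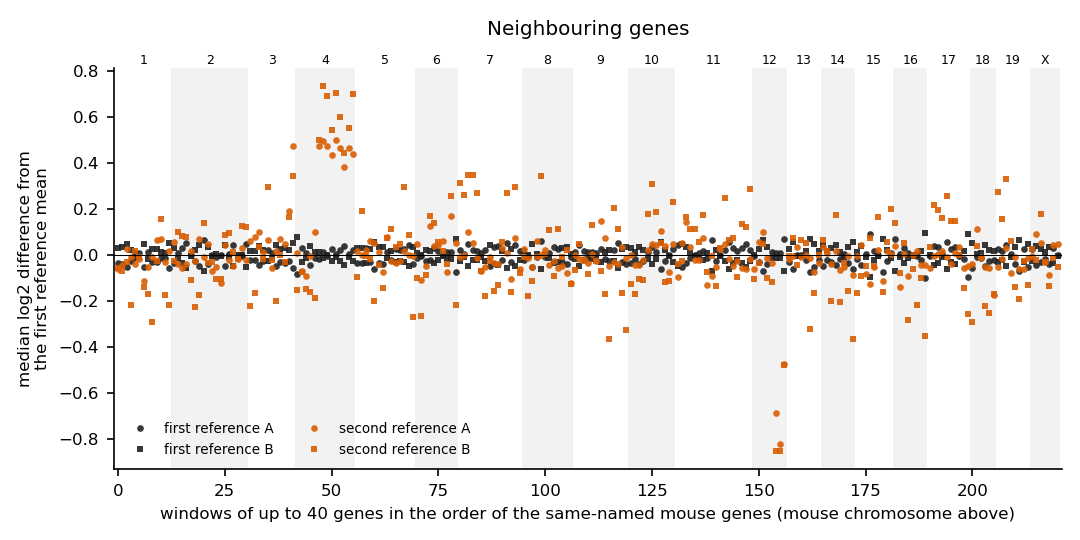
Median log2 difference from the mean of both first reference libraries (y axis) in 221 windows of up to 40 tested genes, in the order of the mouse genes of the same name (x axis, windows; mouse chromosome above), for the 4 reference libraries. Both libraries of the second reference lie at 0.38 or above in the 9 windows at the end of mouse chromosome 4 and at -0.47 or below in the 3 at the end of mouse chromosome 12, and library B scatters more widely elsewhere.

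The stretches hold a large part of the calls. The higher stretches had 3.82% of the tested genes and 36.9% of the genes called higher, and the lower one 0.944% of the tested genes and 12.8% of those called lower. Outside them or without a place in the mouse order, 226 genes were higher and 395 lower, and 164 and 197 with the trend off. Of the 812 called genes 726 had a place, and genes without one were assigned to no stretch. When genes of the stretches were left out of the limma fit altogether, 446 of the remaining 9081 genes were called, 176 higher and 270 lower. The stretches were chosen by these same differences, so their share of the calls is a description.

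Genes of mitosis that passed the test were all higher in the second reference. Of 19 tested genes of the cell cycle and mitosis list, 6 were called higher and 0 lower, with a median of 0.47 beside 0.01 over all genes, and 9 with the trend off. CDC20, the activator of the anaphase-promoting complex, had 2709 and 4157 normalised reads in the first reference and 6745 and 7985 in the second, a difference of 1.13 ± 0.21 (SE, log2; limma adjusted p = 0.00362). It lies in the higher stretch of mouse chromosome 4. CCNB1, the mitotic cyclin B1, lies outside, with 1470 and 3060 reads against 4294 and 5205. BIRC5, survivin of the chromosomal passenger complex, had 1809 and 2226 reads against 3479 and 4236, and KIF20A, a kinesin of cytokinesis, 948 and 1654 against 2737 and 2355. Without library A of the first reference CDC20, CCNB1, KIF20A and BIRC5 differed by 0.82, 0.63, 0.62 and 0.79 (log2). With all 4 reference libraries the differences were 1.13, 1.16, 1.03 and 0.94. CDC20, CCNB1 and KIF20A were lowest in the second numerator, where CDC20 had 880 and 1173 reads.

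No DNA replication gene passed. Of 16 tested, limma called 0 in either direction, with a median of -0.02, and 0 with the trend off. At an unadjusted limma p under 0.05 there were 2 of the 16, beside 2415 of all 9535 genes. Among 11 G1 cyclins and inhibitors, the inhibitors CDKN2C and CDKN1A were called higher. CDKN2C, which binds CDK4 and CDK6 and lies in the chromosome 4 stretch, had 1086 and 994 reads against 1913 and 2231. CDKN1A, the p53 target p21, had 5713 and 4417 reads against 7857 and 9775, a difference of 0.81 ± 0.19 (SE, log2; limma adjusted p = 0.0171) that did not pass with the trend off, at 0.0804.

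Targets of p53, the DNA damage factor, had a median of 0.55 over 15 tested genes, 4 of them called higher and 0 lower, and 4 with the trend off. GDF15, a secreted stress cytokine, had 1079 and 1011 normalised reads in the first reference and 1880 and 2541 in the second, a difference of 1.06 ± 0.20 (SE, log2; limma adjusted p = 0.0036). Its level was 9346 and 8416 in the second numerator. PLK3, a polo-like kinase, and SESN2, a stress-induced inhibitor of mTORC1, were called as well, and both lie in the chromosome 4 stretch.

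Sterol synthesis genes that passed were higher in the second reference. Of 16 tested genes 4 were called higher, with a median of 0.54, and 5 with the trend off. HMGCS1, the cytosolic synthase that makes HMG-CoA, had 379 and 474 normalised reads in the first reference and 965 and 654 in the second, a difference of 0.91 ± 0.23 (SE, log2; limma adjusted p = 0.0194). FDFT1, squalene synthase, had 745 and 774 reads against 1221 and 1437. MVK, mevalonate kinase, had 278 and 240 against 439 and 485. In 13 of the 16 both second reference libraries lay above both first ones, beside 29.6% of all genes. Fatty acid and triglyceride synthesis had a median of 0.05, and limma called 0 of 15 tested genes, 3 at an unadjusted p under 0.05.

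Matrix genes that passed were mostly lower, and they are long. Of 14 tested collagen chains 7 were called lower and 2 higher, with a median of -0.42, but with the trend off 1 was lower and 3 higher. COL12A1, a chain of collagen XII, had 4207 and 3619 normalised reads in the first reference and 1687 and 873 in the second, a difference of -1.68 ± 0.24 (SE, log2; limma adjusted p = 0.000404), and stayed called with the trend off at -1.10. COL6A3, the long chain of collagen VI, had 37199 and 55125 reads against 27751 and 17846. It was not called with the trend off (-0.42, limma adjusted p = 0.228). The partner chain COL6A2, picked after its values were seen, moved the other way, with 3774 and 2391 reads against 4894 and 5386, and was called higher in both fits. COL17A1, a hemidesmosome collagen, had 147 and 159 reads against 309 and 302.

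Of 17 other matrix proteins with reads, 4 were called lower and 0 higher, with a median of -0.41. With the trend off 3 were lower, and TNC, the glycoprotein tenascin C, was higher. LAMA4, a laminin alpha chain, had 2306 and 2150 normalised reads in the first reference and 764 and 538 in the second, a difference of -1.79 ± 0.20 (SE, log2; limma adjusted p = 4.85e-05). THBS2, an antiangiogenic matricellular protein, had 2441 and 2591 reads against 957 and 618. Versican, VCAN, had 4147 and 4246 reads against 2356 and 1309, and its highest value was 18298 in first numerator library A. LAMA4, THBS2 and VCAN remained called with the trend off, at -1.38, -1.44 and -0.65, and FBN2, fibrillin 2, did not.

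Integrins, the receptors that bind the matrix, had a median of -0.66, the lowest as fitted of the lists with at least 8 tested genes. It was -0.43 with the trend off, and that of mitochondrial DNA genes was lower, at -0.45. Of 12 tested, 6 were called lower and 0 higher, and 4 with the trend off. ITGA1, a collagen-binding alpha chain, had 1138 and 1183 normalised reads in the first reference and 588 and 363 in the second, a difference of -1.33 ± 0.22 (SE, log2; limma adjusted p = 0.00195). ITGB1, the beta chain that pairs with it and is named after its values were seen, had 19774 and 28630 reads against 15482 and 11446. ITGB4, the hemidesmosome chain, had 512 and 269 reads against 159 and 124. ITGA3, a laminin-binding chain, had 33368 and 35086 reads against 21610 and 20754 and did not pass with the trend off, at a limma adjusted p of 0.126.

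PLAT, tissue plasminogen activator, had 14142 and 4973 normalised reads in the first reference and 3535 and 3213 in the second. Most of the gap came from library A of the first reference, without which the difference was -0.56 in place of -1.31 (log2). SERPINE2, an inhibitor of thrombin and plasminogen activators, had 4865 and 5630 reads against 3240 and 2969. The tested activators and serpins numbered 8, with 3 called lower in both fits and 0 higher. MMP2, gelatinase A, had 4379 and 3849 reads against 2316 and 2205, a difference of -0.86 ± 0.18 (SE, log2; limma adjusted p = 0.00714).

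**Figure D5:**
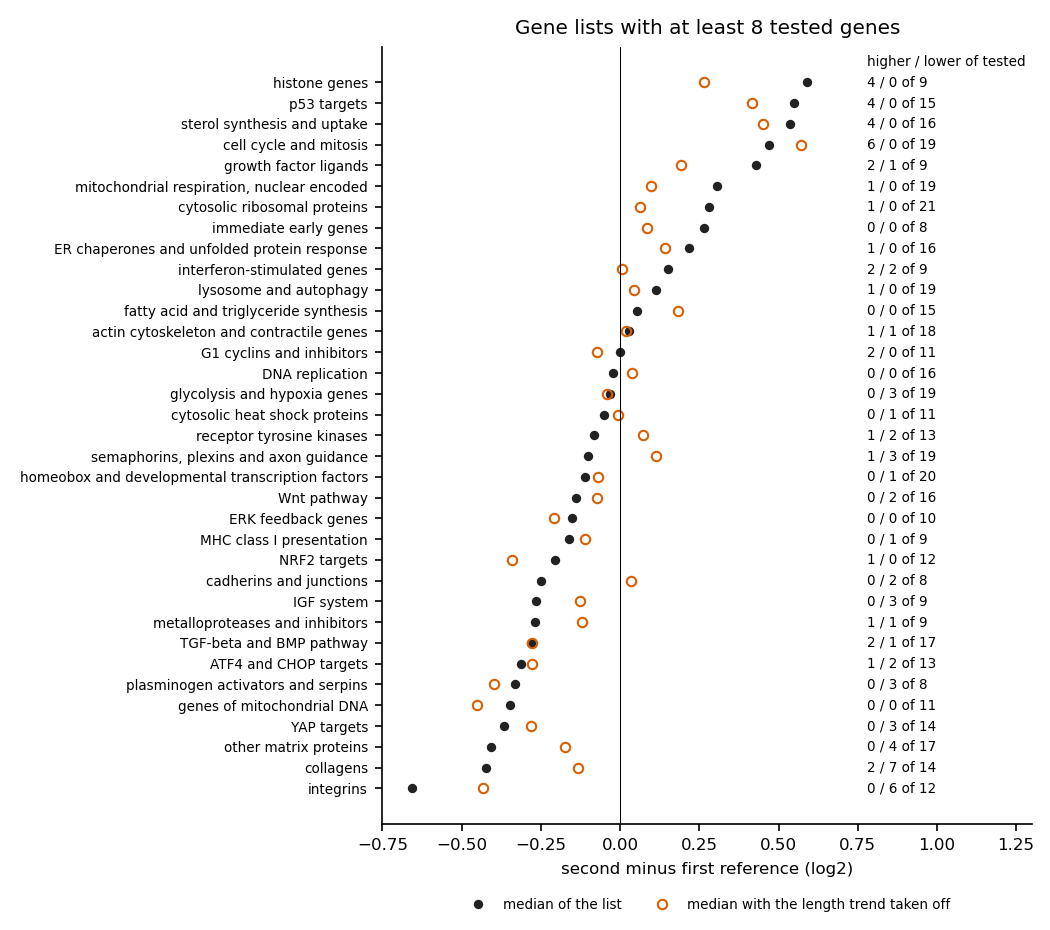
Median log2 difference of the second from the first reference (x axis) for gene lists with at least 8 tested genes (y axis), as fitted (black) and with the trend on coding length taken off (open orange), with the number of genes called higher and lower on the right. Histone, p53, sterol and mitosis lists lie highest, from 0.59 to 0.47, and integrins lowest at -0.66, while collagens move from -0.42 to -0.13 without the trend.

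Of 13 tested receptor tyrosine kinases, 2 were called lower and 1 higher, with a median of -0.08, and 2 lower and 2 higher with the trend off. EGFR, the receptor of epidermal growth factor, had 4099 and 4771 normalised reads in the first reference and 2714 and 1746 in the second, a difference of -1.02 ± 0.21 (SE, log2; limma adjusted p = 0.00667). IGF1R, the receptor through which IGF1 and IGF2 signal, had 2444 and 2011 reads against 1417 and 942. IRS1, an adaptor of the insulin and IGF receptors, had 2861 and 3777 reads against 2089 and 1204. IGF2R, which clears IGF2 to the lysosome, had 7369 and 10395 against 6110 and 3903. The IGF system thus had 3 of 9 tested genes lower and 0 higher, and 2 lower with the trend off. IGF2R did not pass with the trend off, at -0.33 and a limma adjusted p of 0.326. EPHB2, an ephrin receptor of the chromosome 4 stretch, was called higher.

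VEGFA, the endothelial growth factor induced by low oxygen, had 7485 and 7810 normalised reads in the first reference and 3700 and 2946 in the second, a difference of -1.21 ± 0.18 (SE, log2; limma adjusted p = 0.000807). PDK1, which holds pyruvate back from the mitochondrion, had 1518 and 1236 reads against 811 and 551. CA9, a carbonic anhydrase induced by low oxygen, had 3598 and 1818 reads against 1536 and 1391. These 3 were the genes called lower among 19 tested of glycolysis and hypoxia, whose median was -0.03. With the trend off VEGFA and PDK1 remained called, BNIP3, a mitophagy receptor, was called lower as well, and CA9 had no mouse length.

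Of 9 tested interferon-stimulated genes, IFI6 and ISG15 were called higher and IFI27 and OAS3 lower. ISG15, a ubiquitin-like modifier of the chromosome 4 stretch, had 310 and 197 normalised reads in the first reference and 396 and 514 in the second. IFI27 of the chromosome 12 stretch was described above. OAS3, a sensor of double-stranded RNA, had 1045 and 664 reads against 488 and 436. OAS3 lies in no stretch. IFI6 was assigned to none, which is also so for any gene without a place in the mouse order. IFI27 alone of these was called with the trend off, and IFI6 had no mouse length.

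Genes driven by ATF4, a factor of amino acid supply, passed in both directions. Of 13 tested, SLC7A5, the carrier of large neutral amino acids, and PSAT1, a serine synthesis enzyme, were called lower in both fits, and SESN2 higher. SLC7A5 had 6139 and 9462 normalised reads in the first reference and 4250 and 4253 in the second, against 26712 and 22448 in the second numerator. ER chaperones had 1 of 16 tested genes called higher, MANF, a secreted survival factor, and 0 lower. With the trend off limma called 0. In the NOTCH pathway, the receptors NOTCH2 and NOTCH3 were called lower of 5 tested, with 11525 and 13274 against 8024 and 4057 reads and 614 and 341 against 202 and 116. Both receptors are long, and NOTCH3 alone passed with the trend off.

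Cytosolic ribosomal proteins had a median of 0.28 over 21 tested genes with 1 called, and a median of 0.06 with 0 called with the trend off. Nuclear genes of mitochondrial respiration had a median of 0.31 over 19 and 0.10 with the trend off, SDHB being called in both. Genes of mitochondrial DNA went the other way, with a median of -0.35 over 11 and 0 called by limma, 3 at an unadjusted p under 0.05, but 3 of 10 lower with the trend off (MT-CO2, MT-ND4 and MT-ATP8). MT-RNR1, the small mitochondrial ribosomal RNA and no member of that list, was called higher, with 39072 and 59675 normalised reads against 80294 and 114314.

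Among the most abundant called genes, VIM, the intermediate filament of mesenchymal cells, had 55103 and 57705 normalised reads in the first reference and 92542 and 112965 in the second. Its difference was 0.86 ± 0.21 (SE, log2; limma adjusted p = 0.017), and it was called with the trend off. PLEC, the cytolinker plectin, had 50550 and 46990 reads against 26818 and 22989. AHNAK, a very large scaffold protein, had 26457 and 24847 reads against 17596 and 10250. Both are among the longest coding genes, and with the trend off their differences were -0.26 and -0.17 and were not called by limma (adjusted p = 0.437 and 0.626). KRT8, a keratin of simple epithelia, was called higher, as was VIM, among 9 genes with reads of the mesenchymal and epithelial lists, and limma called 0 lower, in both fits. The medians were -0.19 over 6 mesenchymal and 0.21 over 3 epithelial genes. FN1, fibronectin, is a mesenchymal marker whose reads were not recovered, and its deposited fold changes gave -1.45 ± 0.62 and -1.42 ± 0.79 (SE, log2), neither of which passed the Wald test.

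The signalling lists are read against 3.75% of all genes called higher and 4.76% lower. Counts with the trend off are read against 281 higher and 257 lower of 8489 genes. The Wnt pathway had WNT5A and LRP5, a ligand and a coreceptor, lower among 16 tested, and with the trend off WNT5A lower and FZD7, a receptor, higher. WNT5A had 2266 and 2610 normalised reads in the first reference and 1459 and 903 in the second, a difference of -1.08 ± 0.21 (SE, log2; limma adjusted p = 0.00565). Of 17 TGF-beta and BMP genes, TGFB1, the ligand, and ID3, a BMP target of the chromosome 4 stretch, were higher and SKIL, a feedback inhibitor, lower. INHBA, the activin chain, was lower as well with the trend off. The retinoic acid enzyme ALDH1A3 and the transglutaminase TGM2 were lower of 5 tested in both fits, TGM2 with 14035 and 13465 reads against 7295 and 6656. Targets of YAP had 3 of 14 tested genes lower, AMOTL1, AMOTL2 and F3, and F3 alone with the trend off. Immediate early genes, ERK feedback genes and metallothioneins had 0 genes called by limma of 8, 10 and 3 tested, and 2, 2 and 0 at an unadjusted p under 0.05. EPHA2, an ephrin receptor of the ERK feedback list, was called higher with the trend off.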

How the data were processed

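The authors' deposited table holds 28 columns, 7 for each of 4 comparisons: besides the identifier there are the base mean (a normalised count averaged over libraries), the log2 fold change with its error, the statistic (a score), and raw and adjusted p-value, per the file headers. No source used here names the aligner, counter or build, and 0 of 24 value columns could be tied to a sample. Members needed 10 CPM and estimates of 1 sign that differed by at most 0.1 after their median difference of -0.04 was removed. The 360 genes outside were at most 0.02 in size. Reads were recovered as whole numbers that give the base means to 15 digits (numpy 2.4.6), tested on simulated data, and 6 genes were not recovered. They were fitted with limma 3.58.1 (R 4.3.3), scaled by median ratios, with Benjamini-Hochberg adjustment over 9535 genes. Members, lists, windows and the added fits were chosen with earlier results of these data known. Named genes were the 15 largest and 5 most abundant called in each direction and up to 4 of each list, of which part is printed. Genes that tell sex, clone names and pseudogenes were left out, and AC090498.1 was named to account for a count. Genes named outside this rule, such as the ends and exceptions of the stretches, PTPRF, CRYZ, COL6A2, TNC, BNIP3, FN1, FZD7, INHBA, EPHA2 and those of mitochondrial DNA, were chosen after their values were seen. Some called genes that are counted above are not reported here by name.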

Additional observations from a re-analysis of the deposited data

How the results depend on the processing

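No paired analysis was possible because no library carries a replicate number. The 7 genes of the Wald test became 51 with the error of the 2 reference sets alone, 18 at 2 CPM, 240 through the second numerator alone and 0 at 50 CPM (82 at an unadjusted p under 0.05 by both estimates, and 536 by limma on reads), and stayed 7 under the other 5 settings tried. The 812 limma calls became 1241 with the second numerator added, 22 with all 8 libraries, 536 at 50 CPM, 446 without the stretches, 538 with the length trend off and 209 over 2-fold. Leaving out 1 reference library gave 1 to 977 calls: 371 and 366 without library A or B of the first reference, 977 without A and 1 without B of the second. Members were 4040 at 50 CPM. Scaled by total reads limma called 603. None of the 111 genes named by rule changed sign in a limma setting that tested it. Limma settings were chosen after the data were seen. With 2 libraries a set, the spread rests on few values.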
